A study of Saccharomyces cerevisiae with 12 samples.

Results

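Budding yeast carries a set of general stress and reserve carbohydrate genes, and 32 of them were followed here among the 7127 features counted in each library. They were chosen by name: genes of the Msn2 and Msn4 stress response such as CTT1, HSP12, HSP26, DDR2, GND2 and ALD3, and genes of trehalose and glycogen metabolism such as TPS1, TSL1, GSY1, GPH1 and NTH1. The series measured messenger RNA in Saccharomyces cerevisiae cells whose supply of histone H3 could be shut off, in 12 libraries. There were 4 groups of 3 biological replicates each. The H3i strain (DGS200.1) was derived from YEF473A according to the growth protocol, while the label of the WT samples reads YEF4734A. It lacks HHT1, and its only other H3 gene, HHT2, is driven by the GAL1 promoter, which works in galactose and is repressed by glucose. The group H3i YPD is this strain after its medium was changed to YPD, the glucose medium, so that H3 transcription is off. The group H3i YPGal is the same strain kept in YPGal, the galactose medium, so that H3 is made. WT YPD and WT YPGal are cells with normal H3 genes after the change to YPD and kept in YPGal. All cells were first grown in YPGal at 30 °C, and how long they stayed in YPD was not stated. H3i YPD and H3i YPGal differ in sugar as well as in H3 supply. The strain comparison within YPD holds the sugar equal, but it cannot tell loss of H3 from other differences between the strains. The difference of the 2 responses sets the change of medium in each strain side by side, with the same limit. The WT comparison changes the medium with normal H3 genes.

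In budding yeast, many of these genes are switched on when growth slows or stress sets in. The zinc finger factors Msn2 and Msn4 then enter the nucleus and bind stress response elements, whose core is AGGGG. Protein kinase A, which is active when glucose is plentiful, keeps these factors out of the nucleus and represses the genes, while the kinase Rim15 acts in the opposite direction through Gis1 and the post-diauxic shift element, whose core is AGGGAT. Trehalose protects proteins and membranes, glycogen stores glucose, and the genes that make and break down both sugars are induced together.

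The libraries differed by replicate more than by group in several respects. The sum of gene counts lay between 2176277 and 2525223 for replicate 1, between 40950610 and 52278567 for replicate 2 and between 8649749 and 11628815 for replicate 3. Loss was measured over nuclear genes that reached 50 CPM (gene counts scaled to a library sum of 1000000) in a reference from the same group. For replicate 2 the reference was the mean of replicates 1 and 3. For replicate 1 it was replicate 3 alone, and for replicate 3 it was replicate 1 alone. In the replicate 2 libraries, 22.0% to 47.3% of these genes stood below 0.1 of that level, against at most 0.892% in replicates 1 and 3. The share lost in replicate 2 was smallest in H3i YPD (22.0%), against 42.4% in WT YPD, 46.0% in WT YPGal and 47.3% in H3i YPGal. Of the 32 genes, 6 of 32 were lost in this way in H3i YPD replicate 2, 9 of 26 in H3i YPGal replicate 2, 4 of 11 in WT YPD replicate 2 and 7 of 24 in WT YPGal replicate 2. In replicate 1 the same measure gave 0 of 31 in H3i YPD, 3 of 28 in H3i YPGal, 3 of 13 in WT YPD and 2 of 24 in WT YPGal, and in replicate 3 it gave none. Tests therefore used the 8 libraries of replicates 1 and 3, and replicate 2 is given as values. The strain labels were checked first. HHT1 had 0, 2.66 and 0 CPM in H3i YPD replicates 1 to 3, at most 3.34 CPM in H3i YPGal and at least 634 CPM in every WT library. HHT2 had 14.7, 21.5 and 30.3 CPM in H3i YPD, 3694, 4353 and 2284 CPM in H3i YPGal, 781 to 834 CPM in WT YPD and 911 to 1300.0 CPM in WT YPGal. The WT libraries of replicate 3 stood apart in marker genes: HIS3 had 21.9 CPM in WT YPD and 22.7 CPM in WT YPGal and 0 in the other 10 libraries, LEU2 and URA3 had 0 in both, and the alpha-factor gene MF(ALPHA)1 had 2325 and 2464 CPM. Results that rest on these WT libraries are also given without them. The fit without them holds 1 library in each WT group, so any counts of calls from it take their spread from the H3i libraries alone.

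The 250 bases before the coding start were read for all 32 genes from the RefSeq assembly R64. AGGGG, on either strand, was present in 21 of the 32 windows (65.6%), against 1126 of 6001 windows (18.8%) of protein-coding genes. Windows with 2 or more matches were 9 of 32 (28.1%), against 2.2% of all windows. Some members were chosen as genes of the Msn2 and Msn4 response, so a higher share of this core is no finding about these data. AGGGAT on either strand, which shares its first 4 bases with AGGGG, was present in 11 of the 32 windows (34.4%) against 7.77% of all, and TATAAA on either strand in 21 (65.6%) against 43.4%. The 130 bases farthest from each coding start are shown for 7 genes, on the strand of the gene, with AGGGG or its complement CCCCT in capitals. GND2 and GAD1 had the largest strain differences in YPD, HSP12 had the highest level per kilobase in H3i YPD, TSL1 had 3 matches, GPH1 had none, and DDR2 and TPS1 were the only 2 genes not called in that comparison.
GND2 (chrVII:1004374-1004503, plus strand): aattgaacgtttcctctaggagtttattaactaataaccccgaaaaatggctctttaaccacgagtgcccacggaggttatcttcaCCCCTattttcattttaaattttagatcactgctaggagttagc
GAD1 (chrXIII:770551-770680, plus strand): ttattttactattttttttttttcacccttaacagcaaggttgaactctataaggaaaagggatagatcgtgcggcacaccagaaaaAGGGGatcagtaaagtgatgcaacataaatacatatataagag
HSP12 (chrVI:107006-107135, plus strand): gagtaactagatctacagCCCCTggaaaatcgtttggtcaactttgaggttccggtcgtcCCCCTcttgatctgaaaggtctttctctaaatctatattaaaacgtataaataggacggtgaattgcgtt
TSL1 (chrXIII:70374-70503, plus strand): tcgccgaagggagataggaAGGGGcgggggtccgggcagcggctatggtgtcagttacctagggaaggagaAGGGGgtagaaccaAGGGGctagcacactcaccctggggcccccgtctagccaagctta
GPH1 (chrXVI:861056-861185, plus strand): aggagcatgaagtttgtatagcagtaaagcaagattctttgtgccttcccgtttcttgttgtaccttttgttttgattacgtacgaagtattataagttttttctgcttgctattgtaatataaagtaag
DDR2 (chrXV:231876-232005, minus strand): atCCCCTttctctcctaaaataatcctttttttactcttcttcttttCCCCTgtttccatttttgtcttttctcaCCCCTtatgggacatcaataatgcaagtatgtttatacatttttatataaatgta
TPS1 (chrII:490513-490642, minus strand): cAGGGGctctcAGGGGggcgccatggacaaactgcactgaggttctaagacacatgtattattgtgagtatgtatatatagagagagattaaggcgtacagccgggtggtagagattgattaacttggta

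The first question was whether cells without new H3 and cells with normal H3 differed in these genes in glucose. They did: 30 of the 32 genes were higher in H3i YPD than in WT YPD and none was lower, at a Benjamini-Hochberg adjusted p under 0.05 in edgeR's quasi-likelihood test. Of all 6354 genes tested, 26.0% were called higher and 23.7% lower in this comparison. The fitted log2 fold change was positive for all 32 genes, from 0.44 to 6.63, with a median of 2.65 against 0.10 over all genes tested. Their summed level was 13593, 17281 and 10171 CPM in H3i YPD (replicates 1, 2 and 3), 3884, 4177 and 8458 CPM in H3i YPGal, 1025, 2084 and 2197 CPM in WT YPD and 5011, 5459 and 6310 CPM in WT YPGal. Every H3i YPD library thus exceeded every other library, and every WT YPD library lay below every other. In bulk RNA, fewer cells that express a gene and less of its RNA per cell cannot be told apart. Without HSP12 and HSP26, the sum was still 11190.2, 13977 and 8460.4 CPM in H3i YPD, against 1021, 2071 and 1904 CPM in WT YPD.

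**Figure D1:**
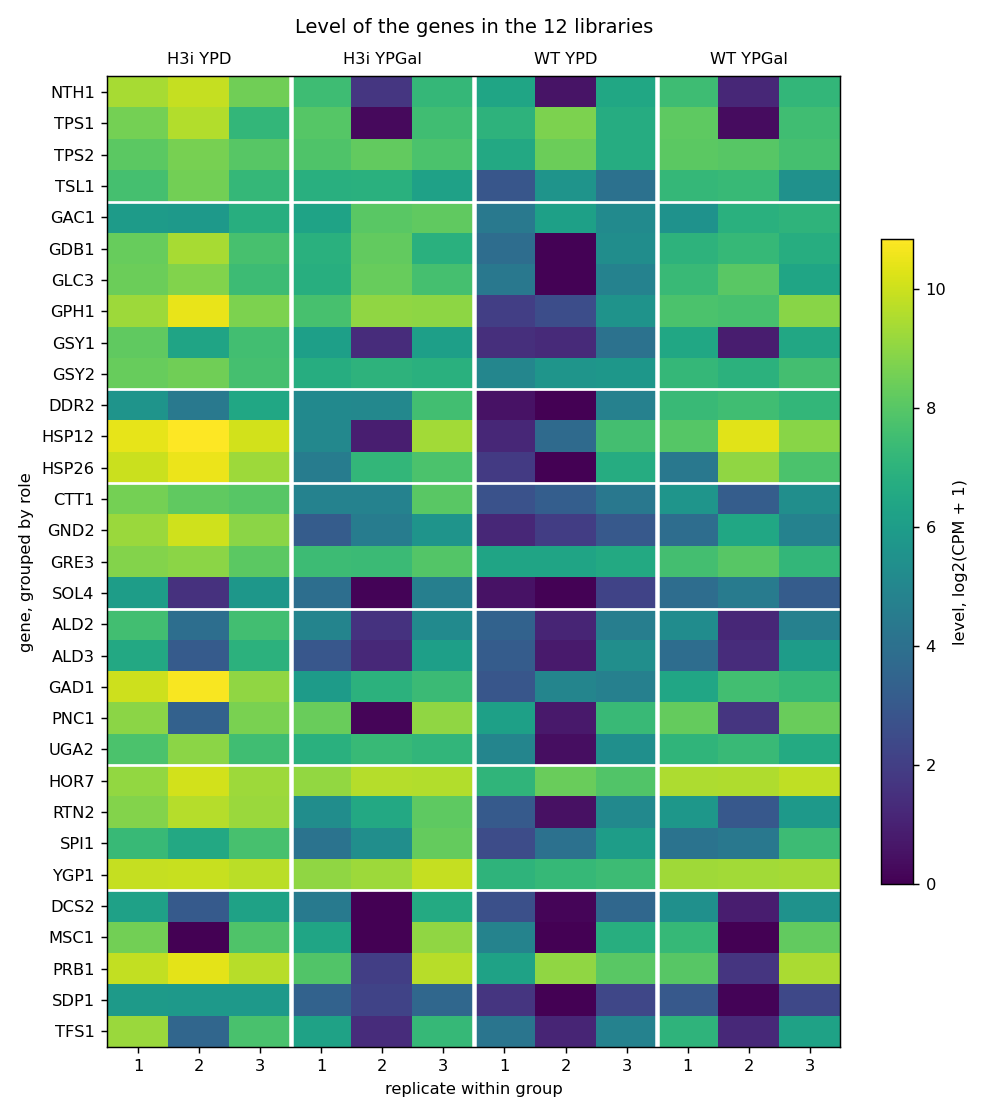
Levels of 31 of the genes (rows, grouped by role from trehalose at the top to signalling and proteolysis at the bottom) in the 12 libraries (columns, by group and replicate) as log2(CPM + 1). For 21 of all 32 genes the 3 H3i YPD values lie above the 3 WT YPD values, and dark single cells in replicate 2, such as MSC1 at 0 in all 4 groups, are genes lost from those libraries.

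Taken replicate by replicate, H3i YPD was above WT YPD for 32 of 32 genes in replicate 1, for 30 of 31 in replicate 2 and for 32 of 32 in replicate 3, where 70.2%, 70.4% and 69.1% of all genes were higher in the same replicates. The median log2 ratio of the members was 4.20, 5.05 and 2.34 in replicates 1, 2 and 3, beside 0.73, 1.94 and 0.63 over all genes. For 21 of the 32 genes all 3 H3i YPD libraries lay above all 3 WT YPD libraries, where 27.1% of all genes tested did so. In replicate 2 more genes were lost from WT YPD than from H3i YPD (42.4% against 22.0%). The part of this uneven loss in the replicate 2 ratios and in the count of 21 was not tested. Without both WT libraries of replicate 3, fitted values ran from 0.73 to 8.70 over the 32, with a median of 3.36 against 0.11 over all genes. In WT YPD this leaves replicate 1, where 31 of the 32 genes stood below replicate 3. WT YPD replicate 1 carried the most weight: without it 19 genes were called. Fitted on all 12 libraries with a replicate block, 13 were called, and with the kit term alone none was (6 of 6408 genes in all). When libraries were scaled by gene totals in place of TMM factors, all 32 were called, where 42.9% of all genes tested were called higher. That scaling also moved the median of all genes to 0.70 and the share of calls that were higher to 77.3%, from 52.3% with TMM.

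Fold changes in this comparison ran against expression level, so the members were set beside genes of like level in WT YPGal. At 10 to 50 CPM, 7 of 7 members were called higher (median log2 fold change 2.89), against 43.2% of 1266 other genes (0.84). Between 50 and 200 CPM the counts were 14 of 15 members (2.77), against 20.0% of 2907 other genes (-0.03). Between 200 and 1000 CPM, 8 of 9 members were higher (1.98), against 4.74% of 1098 other genes, of which 62.3% were called lower (-1.16). The single member below 10 CPM, SDP1, was called higher, as were 46.6% of 932 other genes. These shares describe the level bins and were not tested. By level per kilobase, the typical member exceeded 83.9% of 5856 genes in H3i YPD, 57.0% in H3i YPGal, 20.4% in WT YPD and 54.8% in WT YPGal.

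**Figure D2:**
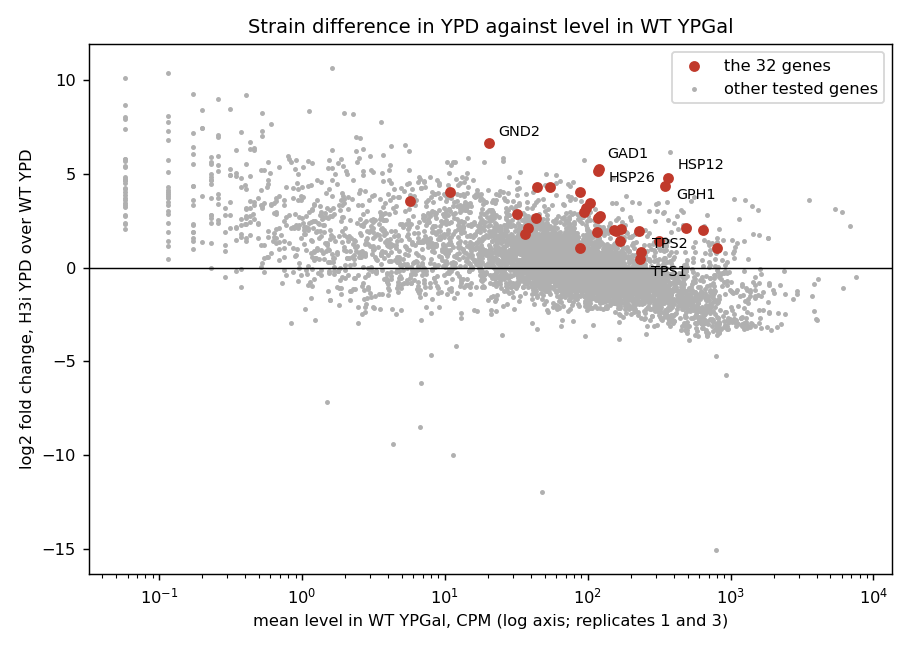
The log2 fold change of H3i YPD over WT YPD (vertical axis) is plotted against the mean CPM in WT YPGal of replicates 1 and 3 (horizontal log axis) for every tested gene with counts there. Red points are the 32 genes, all above 0, from TPS1 at 0.44 to GND2 at 6.63, while the grey cloud of other genes slopes to a median of -1.16 between 200 and 1000 CPM.

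Trehalose genes differed in size of effect. TPS1 and TPS2 encode the synthase and the phosphatase that make the sugar, TSL1 a large regulatory subunit of the same complex, and NTH1 the neutral trehalase that breaks it down. TSL1 (YML100W) had 201, 371 and 149.6 CPM in H3i YPD (replicates 1, 2 and 3), 113, 116 and 73.4 CPM in H3i YPGal, 6.49, 47.5 and 15.7 CPM in WT YPD and 149, 157 and 44.3 CPM in WT YPGal. All H3i YPD values were above all WT YPD values. The fit over the 8 libraries gave a difference of 3.17 ± 0.55 (SE) on the log2 scale (adjusted p = 0.00281). NTH1 (YDR001C) had 687, 944 and 354 CPM in H3i YPD, 178, 2.28 and 148 CPM in H3i YPGal, 82.2, 0.478 and 86.7 CPM in WT YPD and 175, 1.32 and 142 CPM in WT YPGal. It was higher in H3i YPD than in WT YPD (1.95 ± 0.27, adjusted p = 0.00125) and than in H3i YPGal (1.22 ± 0.26, adjusted p = 0.00803). NTH1 was lost from 3 of the 4 replicate 2 libraries, so only replicates 1 and 3 speak for it. The second of these calls missed the threshold without H3i YPGal replicate 1, H3i YPD replicate 1 or H3i YPGal replicate 3 (adjusted p up to 0.0731).

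TPS2 and TPS1 are the catalytic subunits. TPS2 (YDR074W) had 273, 395 and 261 CPM in H3i YPD, 231, 298 and 215 CPM in H3i YPGal, 92.1, 333 and 104 CPM in WT YPD and 274, 260.2 and 196 CPM in WT YPGal. Its WT YPD replicate 2 value lay inside the H3i YPD range, and over the 8 libraries H3i YPD exceeded WT YPD by 0.84 ± 0.22 (adjusted p = 0.0154). That call was lost without WT YPD replicate 1, WT YPD replicate 3 or H3i YPD replicate 3 (adjusted p up to 0.125). TPS1 (YBR126C) had 384, 772 and 145 CPM in H3i YPD, 248, 0.223 and 180.0 CPM in H3i YPGal, 129, 414 and 104 CPM in WT YPD and 284, 0.268 and 183 CPM in WT YPGal. The strain difference of TPS1 in YPD did not pass the test (0.44 ± 0.27, adjusted p = 0.213). In WT none of the 4 trehalose genes was called between media, with log2 fold changes of YPD over YPGal from -2.61 for TSL1 to -0.72 for NTH1.

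All 6 glycogen genes were higher in H3i YPD than in WT YPD. GSY1 and GSY2 are the glycogen synthases, GLC3 the branching enzyme, GPH1 the phosphorylase and GDB1 the debranching enzyme, and GAC1 directs the phosphatase Glc7 to glycogen synthase. GPH1 (YPR160W) had 616, 1418 and 419 CPM in H3i YPD, 207, 532 and 512 CPM in H3i YPGal, 3.03, 4.84 and 47.0 CPM in WT YPD and 215, 205 and 482 CPM in WT YPGal. The WT YPD libraries were the 3 lowest of the 12, and the strain difference in YPD was 4.35 ± 0.83 (adjusted p = 0.00425). GSY1 (YFR015C) had 290.4, 78.8 and 187 CPM in H3i YPD, 68.5, 1.58 and 68.0 CPM in H3i YPGal, 1.73, 1.45 and 16.0 CPM in WT YPD and 86.7, 0.805 and 90.1 CPM in WT YPGal. It differed by 4.06 ± 0.64 between the strains in YPD (adjusted p = 0.00199), with only 4 counts behind the WT YPD replicate 1 value.

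GSY2 (YLR258W), the major synthase, had 316, 358 and 197 CPM in H3i YPD, 106, 129 and 118 CPM in H3i YPGal, 30.7, 48.8 and 51.6 CPM in WT YPD and 147, 124 and 192 CPM in WT YPGal. Here all 3 replicates gave the same order: WT YPD lay below both YPGal groups and H3i YPD above them. GSY2 differed by 2.04 ± 0.32 between the strains in YPD (adjusted p = 0.00196). Per kilobase, the level of GSY1 over that of GSY2 in replicates 1 and 3 stood at 0.916 and 0.947 for H3i YPD, 0.640 and 0.575 in H3i YPGal, 0.0561 and 0.308 in WT YPD and 0.588 and 0.466 in WT YPGal. In replicate 2, where GSY1 was lower than in replicates 1 and 3 in every group, these ratios were 0.219 in H3i YPD, 0.0122 in H3i YPGal, 0.0297 in WT YPD and 0.00645 in WT YPGal. The ratio was thus highest in H3i YPD in replicates 1 and 3. In replicate 2 it was also highest in H3i YPD, but that replicate cannot speak for the ratio. There GSY1 was lost, by the measure used above, in H3i YPGal and WT YPGal and not in H3i YPD.

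Both the branching and the debranching enzyme were higher in H3i YPD. GDB1 (YPR184W) had 319, 685 and 203 CPM in H3i YPD, 115, 300.1 and 116 CPM in H3i YPGal, 13.8, 0.0574 and 39.2 CPM in WT YPD and 127, 153 and 107 CPM in WT YPGal (strain difference in YPD 2.67 ± 0.43, adjusted p = 0.00214). GLC3 (YEL011W) had 335, 436 and 173 CPM in H3i YPD, 110.2, 322 and 200.3 CPM in H3i YPGal, 19.5, 0.0574 and 27.0 CPM in WT YPD and 164, 269.5 and 81.7 CPM in WT YPGal (2.77 ± 0.46, adjusted p = 0.00238). Both had 0.0574 CPM, or 3 counts, in WT YPD replicate 2. GAC1 (YOR178C) had another pattern: 61.1, 57.5 and 109 CPM in H3i YPD, 76.0, 264 and 291 CPM in H3i YPGal, 19.9, 71.3 and 35.0 CPM in WT YPD and 45.1, 117 and 133 CPM in WT YPGal. It was below YPGal in both strains, by -1.30 ± 0.32 in H3i (adjusted p = 0.0131) and by -1.43 ± 0.33 in WT, which did not pass the test (adjusted p = 0.105). GAC1 was called higher in H3i YPD than in WT YPD (1.04 ± 0.33, adjusted p = 0.0314), though not without H3i YPD replicate 1 or WT YPD replicate 3 (adjusted p up to 0.245). Its lower level in H3i YPD than in H3i YPGal was not called when replicate 3 of H3i YPGal or of H3i YPD was left out (adjusted p up to 0.141).

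**Figure D3:**
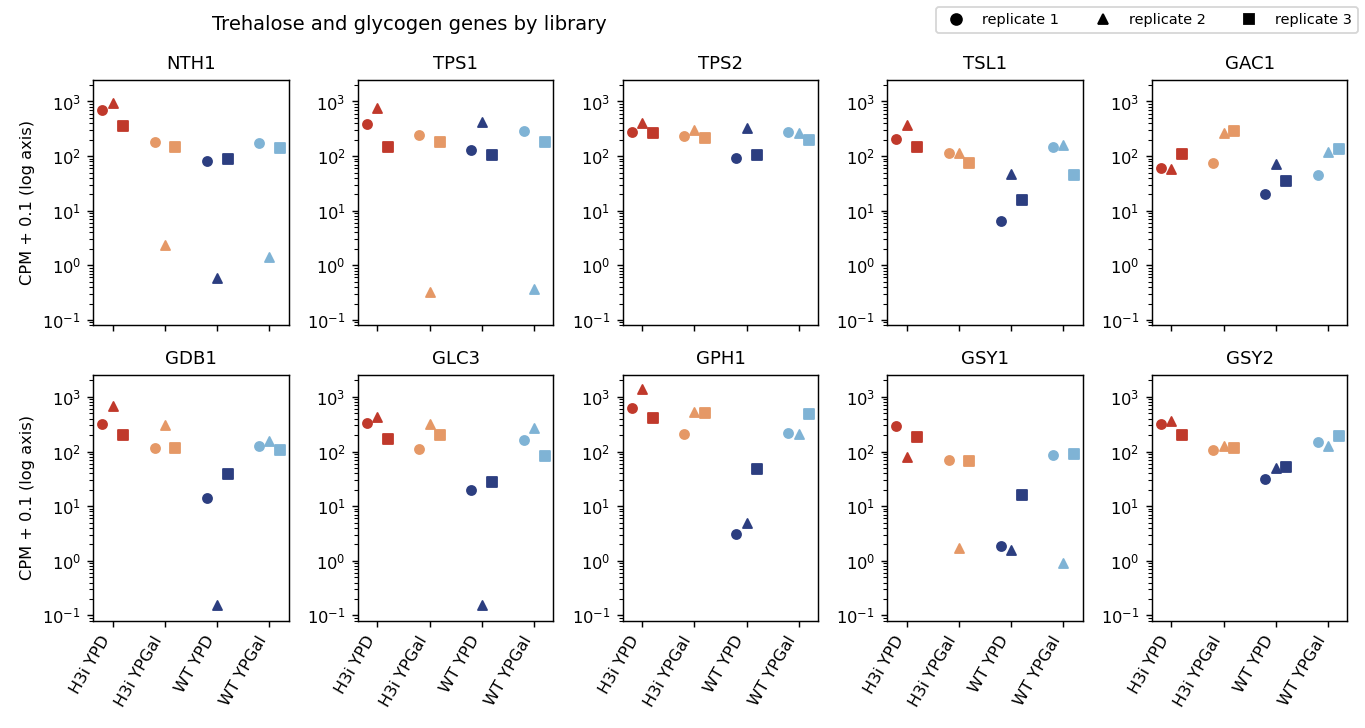
CPM + 0.1 (log axis) of the 4 trehalose genes and the 6 glycogen genes in each library, with 1 panel per gene, the groups along the horizontal axis and the replicates as circles, triangles and squares. WT YPD is lowest in replicates 1 and 3 of every panel, and the triangles below 3 CPM (TPS1, NTH1, GSY1, GDB1 and GLC3) are replicate 2 values, most of them of genes lost from those libraries.

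HSP12 encodes a small protein that stabilises membranes and HSP26 a chaperone that binds unfolded proteins; DDR2 encodes a small protein induced by many stresses. HSP12 (YFL014W) had 1386, 1829 and 1096 CPM in H3i YPD, 32.6, 0.892 and 637 CPM in H3i YPGal, 1.30, 12.5 and 190.4 CPM in WT YPD and 255, 1322 and 479.6 CPM in WT YPGal. H3i YPD exceeded WT YPD in every replicate. The fit over the 8 libraries gave a difference of 4.78 ± 1.53 (adjusted p = 0.0326). That value ranged from 2.56 to 8.72 over the fits that left out 1 library, and it was not called without WT YPD replicate 1 (adjusted p = 0.110), H3i YPD replicate 1 or H3i YPGal replicate 3. WT YPD replicate 1 held 3 HSP12 counts.

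HSP26 (YBR072W) had 1016, 1475 and 615 CPM in H3i YPD, 22.5, 143 and 216 CPM in H3i YPGal, 2.59, 0 and 102 CPM in WT YPD and 19.4, 519 and 217 CPM in WT YPGal. It was the only gene of the 3 called between media in H3i (3.89 ± 1.14, adjusted p = 0.0268), and it was also higher in H3i YPD than in WT YPD (5.15 ± 1.23, adjusted p = 0.0107). Leaving out WT YPD replicate 1 removed the second call (adjusted p = 0.0658), and leaving out H3i YPGal replicate 1, H3i YPD replicate 1 or H3i YPGal replicate 3 removed the first (adjusted p up to 0.183, log2 fold change down to 0.84). DDR2 (YOL052C-A) had 48.2, 19.8 and 85.6 CPM in H3i YPD, 34.2, 32.1 and 189 CPM in H3i YPGal, 0.432, 0 and 26.0 CPM in WT YPD and 163, 181 and 142 CPM in WT YPGal. Unlike HSP12 and HSP26, its H3i YPD levels stayed below all WT YPGal levels. The DDR2 strain difference in YPD did not pass the test (2.03 ± 0.82, adjusted p = 0.0720), and WT YPD replicate 1 held 1 count.

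Among the redox and pentose phosphate genes was the member with the largest strain difference. GND2 encodes the minor 6-phosphogluconate dehydrogenase, which makes NADPH, SOL4 a 6-phosphogluconolactonase of the same pathway, CTT1 the cytosolic catalase T and GRE3 an aldose reductase. GND2 (YGR256W, chrVII:1004624-1006102 in R64) had 598, 1057 and 499 CPM in H3i YPD, 7.93, 22.7 and 47.2 CPM in H3i YPGal, 1.30, 2.93 and 7.13 CPM in WT YPD and 13.9, 87.9 and 26.8 CPM in WT YPGal. No other library came near the H3i YPD values. GND2 differed by 6.63 ± 0.69 between the strains in YPD (adjusted p = 0.000818) and by 4.29 ± 0.60 between media in H3i (adjusted p = 0.00233), and both calls were kept whichever of the 8 libraries was left out. By level per kilobase, GND2 ranked 11 of the 32 genes in H3i YPD and 31 in each of the other 3 groups.

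CTT1 (YGR088W) had 377, 291 and 257 CPM in H3i YPD, 27.1, 27.2 and 264 CPM in H3i YPGal, 5.62, 8.51 and 19.1 CPM in WT YPD and 48.7, 8.05 and 39.7 CPM in WT YPGal. One H3i YPGal library, replicate 3, was as high as H3i YPD, and the medium comparison in H3i did not pass the test (1.17 ± 0.80, adjusted p = 0.271), while the strain difference in YPD did (4.30 ± 0.88, adjusted p = 0.00572). SOL4 (YGR248W) had 63.9, 1.90 and 51.9 CPM in H3i YPD, 14.2, 0.0892 and 24.4 CPM in H3i YPGal, 0.432, 0.0574 and 3.56 CPM in WT YPD and 13.9, 22.0 and 7.86 CPM in WT YPGal, with 1 count in WT YPD replicate 1 (strain difference in YPD 4.04 ± 0.70, adjusted p = 0.00277). GRE3 (YHR104W) had the narrowest spread of the 4: 453, 495 and 271 CPM in H3i YPD, 171, 165 and 246 CPM in H3i YPGal, 80.4, 80.1 and 94.5 CPM in WT YPD and 194, 259.8 and 145 CPM in WT YPGal. It was higher in H3i YPD than in WT YPD (1.41 ± 0.30, adjusted p = 0.00658; without WT YPD replicate 1, 0.0627).

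GAD1 was the next largest. It encodes glutamate decarboxylase, which makes GABA, and UGA2 encodes the succinate semialdehyde dehydrogenase at the end of the GABA pathway. GAD1 (YMR250W, chrXIII:770801-772558 in R64) had 1028, 1682 and 519 CPM in H3i YPD, 60.9, 125 and 168 CPM in H3i YPGal, 6.49, 29.4 and 25.5 CPM in WT YPD and 83.6, 187 and 154 CPM in WT YPGal. The groups did not overlap between strains in YPD or between media in H3i. GAD1 differed by 5.25 ± 0.67 between the strains in YPD (adjusted p = 0.00100) and by 2.64 ± 0.59 between media in H3i (adjusted p = 0.00963; without H3i YPGal replicate 1, 0.0876). UGA2 (YBR006W) had 219.6, 493 and 180.2 CPM in H3i YPD, 118, 156 and 140.4 CPM in H3i YPGal, 29.4, 0.306 and 40.8 CPM in WT YPD and 135, 162 and 97.3 CPM in WT YPGal. It was higher in H3i YPD than in WT YPD (1.89 ± 0.25, adjusted p = 0.00112).

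ALD2 and ALD3, neighbouring genes for cytosolic aldehyde dehydrogenases, were called in both comparisons with H3i YPD. ALD2 (YMR170C) had 187, 14.1 and 189 CPM in H3i YPD, 28.8, 2.01 and 35.7 CPM in H3i YPGal, 9.51, 1.17 and 23.7 CPM in WT YPD and 37.6, 1.30 and 25.9 CPM in WT YPGal. It was low in every replicate 2 library, yet H3i YPD was highest within each replicate (2.89 ± 0.39 over WT YPD, adjusted p = 0.00120, and 2.15 ± 0.38 over H3i YPGal, adjusted p = 0.00411). ALD3 (YMR169C) had 91.4, 7.64 and 123 CPM in H3i YPD, 6.68, 1.36 and 69.4 CPM in H3i YPGal, 7.78, 0.727 and 40.3 CPM in WT YPD and 13.9, 1.59 and 62.2 CPM in WT YPGal. It differed by 2.09 ± 0.60 from WT YPD (adjusted p = 0.0217) and by 1.81 ± 0.59 from H3i YPGal (adjusted p = 0.0397). The first call was lost without WT YPD replicate 1, H3i YPD replicate 1 or WT YPD replicate 3 (adjusted p up to 0.129). The second was kept in only 2 of the 8 fits that left out 1 library, those lacking replicate 3 of H3i YPGal or of H3i YPD, with adjusted p up to 0.251 in the others. Of the 50-base windows in each of these genes, 40.4% occur elsewhere in the genome, so reads from one may have been counted to the other. No other member has repeated windows, and none overlaps another annotated protein-coding gene. PNC1 (YGL037C), the nicotinamidase of NAD salvage, had 489, 9.40 and 401 CPM in H3i YPD, 331, 0.112 and 532 CPM in H3i YPGal, 70.1, 0.689 and 161 CPM in WT YPD and 308, 2.19 and 323 CPM in WT YPGal. It was called higher in H3i YPD than in WT YPD (1.44 ± 0.34, adjusted p = 0.0100), but not without WT YPD replicate 1 or H3i YPD replicate 1 (adjusted p up to 0.102).

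The cell wall and membrane genes included members at high level in every group. YGP1 and SPI1 encode cell wall glycoproteins, RTN2 a reticulon of the endoplasmic reticulum and HOR7 a small protein named for its response to high osmolarity. YGP1 (YNL160W) had 941, 979 and 844 CPM in H3i YPD, 527, 605 and 944 CPM in H3i YPGal, 129.7, 150.3 and 169.9 CPM in WT YPD and 627, 644 and 657 CPM in WT YPGal. WT YPD formed a tight low group and the other 3 groups overlapped or lay close (strain difference in YPD 1.99 ± 0.30, adjusted p = 0.00168). RTN2 (YDL204W) had 449.9, 785 and 586 CPM in H3i YPD, 39.2, 92.5 and 283 CPM in H3i YPGal, 7.35, 0.421 and 34.6 CPM in WT YPD and 51.9, 7.02 and 57.1 CPM in WT YPGal. It was higher in H3i YPD than in WT YPD (4.32 ± 0.65, adjusted p = 0.00168) and than in H3i YPGal (1.74 ± 0.59, adjusted p = 0.0440). The comparison with H3i YPGal was not called without WT YPD replicate 1, H3i YPGal replicate 1, H3i YPD replicate 1 or WT YPD replicate 3 (adjusted p up to 0.270).

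SPI1 (YER150W) had 158, 92.7 and 203 CPM in H3i YPD, 16.7, 39.6 and 313 CPM in H3i YPGal, 4.76, 15.5 and 64.2 CPM in WT YPD and 16.2, 19.0 and 170.4 CPM in WT YPGal. Replicate 3 was its highest in all 4 groups (strain difference in YPD 2.99 ± 0.85, adjusted p = 0.0209; up to 0.112 without WT YPD replicate 1 or WT YPD replicate 3, with a log2 fold change from 1.04 to 4.43 over the leave-outs). HOR7 (YMR251W-A) had 533, 1101 and 614 CPM in H3i YPD, 539, 789 and 776 CPM in H3i YPGal, 135, 331 and 235 CPM in WT YPD and 722, 740.5 and 894 CPM in WT YPGal. In H3i its media groups overlapped, and H3i YPD exceeded WT YPD by 1.07 ± 0.26 (adjusted p = 0.0106; up to 0.122 without WT YPD replicate 1 or H3i YPD replicate 1).

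SDP1, PRB1, TFS1, DCS2 and MSC1, of signalling, proteolysis and other roles, were all higher in H3i YPD than in WT YPD. SDP1 encodes a stress-inducible phosphatase of the MAP kinase Slt2, PRB1 the vacuolar protease B, TFS1 an inhibitor of carboxypeptidase Y, and DCS2 a regulator of the scavenger decapping enzyme Dcs1. SDP1 (YIL113W) had 59.3, 55.8 and 56.4 CPM in H3i YPD, 9.60, 3.59 and 11.4 CPM in H3i YPGal, 2.16, 0.0191 and 3.89 CPM in WT YPD and 7.13, 0.0671 and 4.16 CPM in WT YPGal. The 3 H3i YPD libraries lay together, far above the other 9, which held at most 11.4 CPM. The strain difference in YPD was 3.57 ± 0.50 (adjusted p = 0.00132) and the medium difference in H3i was 2.06 ± 0.45 (adjusted p = 0.00896; up to 0.0823 without H3i YPGal replicate 1 or H3i YPGal replicate 3). PRB1 (YEL060C) had 916, 1339 and 822 CPM in H3i YPD, 235, 2.99 and 817 CPM in H3i YPGal, 73.9, 524 and 266 CPM in WT YPD and 256, 2.15 and 712 CPM in WT YPGal. H3i YPD was above WT YPD in each replicate (2.14 ± 0.48, adjusted p = 0.00801; without WT YPD replicate 1, 0.0791).

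TFS1 (YLR178C) had 588, 11.0 and 208 CPM in H3i YPD, 73.9, 1.56 and 150.4 CPM in H3i YPGal, 17.7, 1.17 and 26.8 CPM in WT YPD and 133, 1.36 and 75.6 CPM in WT YPGal (strain difference in YPD 3.44 ± 0.57, adjusted p = 0.00237). DCS2 (YOR173W) had 71.7, 7.35 and 74.8 CPM in H3i YPD, 21.3, 0.0223 and 97.3 CPM in H3i YPGal, 5.19, 0.0956 and 11.4 CPM in WT YPD and 42.8, 0.805 and 44.4 CPM in WT YPGal (2.63 ± 0.54, adjusted p = 0.00579). Both were highest in H3i YPD within replicates 1 and 2, and DCS2 was highest in H3i YPGal in replicate 3. MSC1 (YML128C) had 0 counts in all 4 replicate 2 libraries. In replicates 1 and 3 it had 368 and 230.5 CPM in H3i YPD, 81.4 and 522 CPM in H3i YPGal, 28.1 and 112 CPM in WT YPD and 154 and 302 CPM in WT YPGal. Its strain difference in YPD (1.98 ± 0.67, adjusted p = 0.0410) was not called without WT YPD replicate 1, H3i YPD replicate 1, WT YPGal replicate 3 or WT YPD replicate 3 (adjusted p up to 0.398, log2 fold change from 0.48 to 2.97).

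The second question was what the change of sugar did with normal H3. In WT, 4 of the 32 genes were lower in YPD than in YPGal and none was higher, where 0.677% of all genes tested were called lower and 0.0944% higher. The 4 were HOR7 (-2.00 ± 0.26, adjusted p = 0.0191), YGP1 (-1.95 ± 0.30, adjusted p = 0.0366), UGA2 (-1.54 ± 0.25, adjusted p = 0.0437) and GSY2 (-1.88 ± 0.32, adjusted p = 0.0498). All 32 fitted values were negative, from -3.90 for DDR2 and GPH1 to -0.55 for ALD3, with a median of -1.78 against 0.01 over all genes, and 25 of the 32 had an unadjusted p under 0.05, as did 1268 of the 6354 genes tested. In replicates 1 and 3 every member was lower in WT YPD than in WT YPGal, and in replicate 2 this held for 25 of 30. Of all genes, 38.2%, 40.7% and 42.2% were higher in WT YPD in replicates 1, 2 and 3. All 3 WT YPD libraries lay under all 3 WT YPGal libraries for 13 of the 32 genes, where 7.46% of all genes tested did so. The count of calls depended on the fit: 17 were called lower without both WT libraries of replicate 3, 24 when only the WT libraries were fitted, 20 by DESeq2, and 0 to 15 when 1 library was left out. The same fits called more genes lower in all: 350 of 6238 without both WT libraries of replicate 3, 355 of 5968 with only the WT libraries and 349 of 6354 by DESeq2, against 43 of 6354 in edgeR. WT YPD replicate 1, WT YPGal replicate 1 and H3i YPGal replicate 3 each took the count to 0, H3i YPGal replicate 1 to 1 and WT YPD replicate 3 to 2. Leaving out WT YPGal replicate 3, H3i YPD replicate 3 or H3i YPD replicate 1 took it to 7, 13 and 15.

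In WT YPD the members also differed between replicates: 31 of 32 were higher in replicate 3 than in replicate 1, by a median of 1.29 on the log2 scale and by 7.20 for HSP12. In H3i YPGal, 27 of 32 were higher in replicate 3, by a median of 0.85, and in H3i YPD only 8 of 32 were. RNA extraction and library kits differed between these replicates, and WT replicate 3 differed in marker genes. The part of either in this spread was not tested.

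The third question was what the same change did in H3i. There 8 genes were higher in YPD than in YPGal and 1 was lower, where 21.4% of all genes tested were called higher and 22.2% lower, so the members' count of 8 in 32 was near the background. The 8 were GND2, HSP26, GAD1, ALD2, SDP1, ALD3, RTN2 and NTH1, and the lower one was GAC1. The members' median was 0.74, against 0.03 over all genes. With libraries scaled by gene totals the share of calls that were higher was 69.7% rather than 49.2%, the median over all genes was 0.42, and 11 members were higher and 1 lower, while 31.9% of all genes were called higher. H3i YPD exceeded H3i YPGal for 30 of 32 members in replicate 1, 29 of 31 in replicate 2 and 19 of 32 in replicate 3. Over all genes the shares were 66.1%, 70.5% and 61.3%, and in replicate 3 the median log2 ratio was 0.32 for the members and 0.32 for all genes. The 3 H3i YPD libraries lay above the 3 H3i YPGal libraries for 13 genes, where 20.9% of all genes tested did so. Without both WT libraries of replicate 3, 14 members were higher and 1 lower, where 24.6% of all genes were called higher. The members' median was 0.41 without H3i YPGal replicate 1, 0.08 without H3i YPD replicate 1 and 1.30 without H3i YPD replicate 3. Over all genes it was 0.02, -0.02 and -0.05 in these fits.

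**Figure D4:**
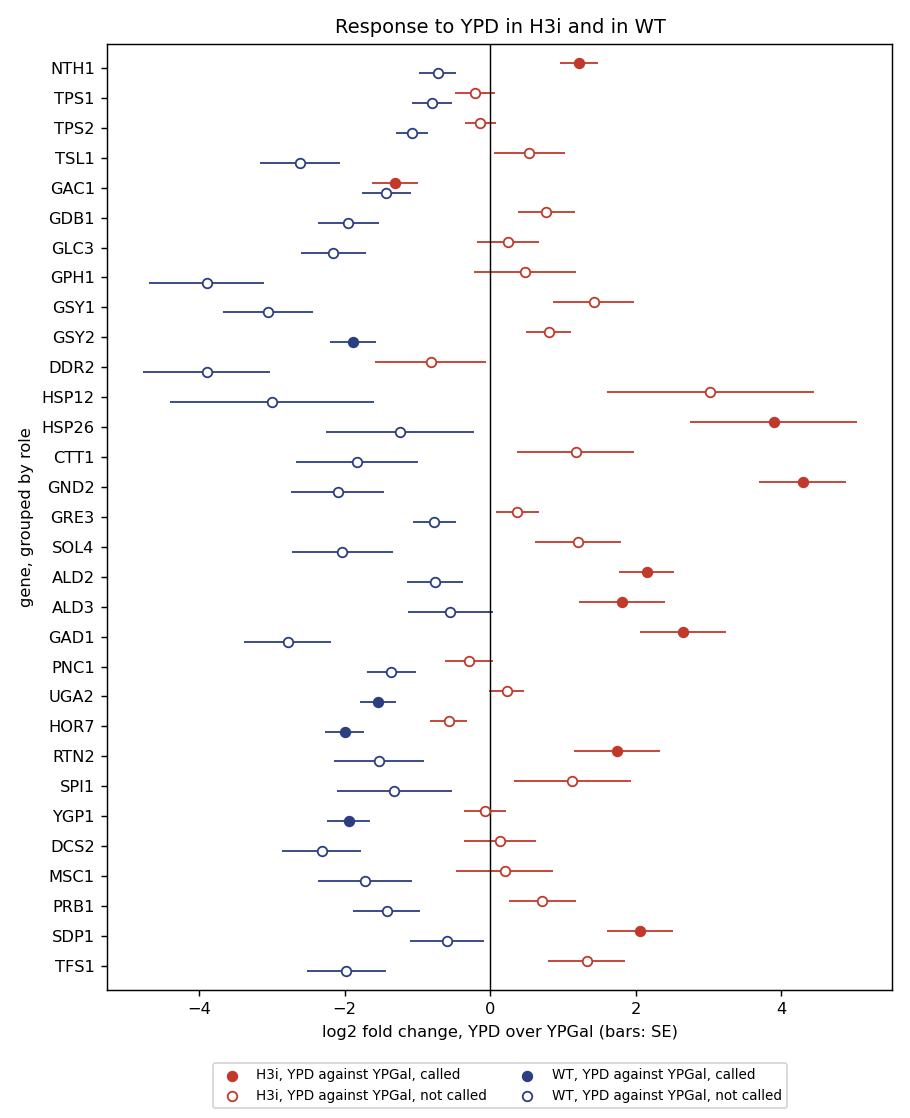
Log2 fold change of YPD over YPGal for 31 of the genes, in H3i (red) and in WT (blue), with SE bars; filled points passed the test. The blue points all lie left of 0, and the red points lie around and right of 0. The medians over all 32 genes were 0.74 in H3i and -1.78 in WT.

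The difference of the 2 responses was tested directly. It was positive for all 32 genes, with a median of 2.55 against 0.07 over all genes, and 20 of the 32 passed the test. In this comparison 13.1% of all genes tested were called higher and 14.5% lower, and no member was called lower. With gene totals, 24 members were called higher, as were 23.5% of all genes. The median of all genes was then 0.63, and 76.2% of calls were higher against 47.6% with TMM. GND2 had the largest called difference (6.39 ± 0.87, adjusted p = 0.00743), followed by GAD1 (5.43 ± 0.85, adjusted p = 0.00828). GSY1, GND2, GSY2, ALD2 and GAD1 were called in every fit that left out 1 of the 8 libraries. For GPH1, the response was 0.48 ± 0.70 in H3i and -3.90 ± 0.79 in WT, neither called alone, with a called difference of 4.37 ± 1.06 (adjusted p = 0.0216). GAC1 had nearly equal responses and a difference of 0.12 ± 0.45 (adjusted p = 0.861). Without both WT libraries of replicate 3, the median difference was 3.07 for the members and 0.07 for all genes, and that of GAC1 was -0.34. Fewer members, and fewer of all genes, were called without WT YPGal, WT YPD or H3i YPGal replicate 1, or without H3i YPGal replicate 3. The members' median in these fits was 2.30, 2.14, 1.84 and 2.94. With no replicate block no member was called, and 25 genes were called in all.

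With galactose in the medium and H3 made in both strains, no member was called. The comparison of H3i YPGal with WT YPGal called 0 of 6354 genes (0.0% higher and 0.0% lower) in edgeR. At an unadjusted p under 0.05 there were 114 genes, 1 of them a member, GAC1 (0.92 ± 0.31), and DESeq2 called 12 genes, none of them a member. The members' fitted values ran from -1.25 for HSP12 to 1.30 for CTT1, with a median of 0.04 against 0.00 over all genes. H3i YPGal exceeded WT YPGal for 7 of 32 members in replicate 1, 17 of 31 in replicate 2 and 27 of 32 in replicate 3, beside 46.9%, 47.5% and 61.6% of all genes. The deleted HHT1 (-9.67 ± 0.98, adjusted p = 0.0603) and HHT2 (1.67 ± 0.44, adjusted p = 1) also missed edgeR's threshold in this comparison, so a count of 0 does not show that the members were equal in H3i YPGal and WT YPGal.

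Nearly all members were called higher in H3i YPD than in WT YPD, so their calls cannot show whether AGGGG in the promoter window made a difference. Of the 21 genes with a match, 19 were higher in H3i YPD than in WT YPD, with a median log2 fold change of 2.67. All 11 genes without one were also higher, with a median of 1.99. The medians were not tested against each other. HSP26, GPH1 and GSY1 were among those without a match in the window. The 2 genes not called, TPS1 and DDR2, held 2 and 3 matches, at 239 to 249 and at 175 to 248 bases before the coding start.

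Genes outside the 32 were then read from 3 lists. Of 24 other stress-induced genes, 21 were higher in H3i YPD than in WT YPD and none was lower (median 2.70), where 26.0% of all genes were higher and 23.7% lower. Then 10 were higher and 1 lower in H3i YPD than in H3i YPGal, where 21.4% of all genes were higher and 22.2% lower. Without both WT libraries of replicate 3, the medians of the 24 were 3.41 between strains in YPD and 0.57 between media in H3i. In the second comparison the 3 largest were GRE1 (3.82 ± 0.55), a hydrophilin induced by osmotic stress, HSP31 (2.93 ± 0.40), a methylglyoxalase, and HSP42 (2.77 ± 0.76), a small heat shock chaperone. HXK1, a hexokinase gene repressed by glucose, was the one that was lower (-3.19 ± 0.77). In WT, 3 of the 24 were lower in YPD than in YPGal (0.677% of all genes). They were GLK1, the glucokinase gene (-3.70 ± 0.49), XBP1, a transcriptional repressor (-3.20 ± 0.47), and UBI4, the polyubiquitin gene (-2.05 ± 0.32). The median of the 24 in WT was -1.73, and -2.86 without both WT libraries of replicate 3.

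Of 16 other reserve carbohydrate genes, 7 were higher and 2 lower in H3i YPD than in WT YPD (26.0% and 23.7% of all genes). Between media in H3i, 3 were higher and 4 lower (21.4% and 22.2% of all genes). The medians of these 2 comparisons were 0.99 and 0.34, and 1.33 and 0.35 without both WT libraries of replicate 3. The sporulation-linked glucoamylase gene SGA1 had 149, 51.9 and 100.1 CPM in H3i YPD, 3.76, 10.1 and 5.98 CPM in H3i YPGal, 3.89, 2.08 and 2.70 CPM in WT YPD and 9.90, 0.0224 and 7.75 CPM in WT YPGal. All 3 H3i YPD libraries were above the other 9. Over the 8 libraries, H3i YPD exceeded H3i YPGal by 4.16 ± 0.43 (adjusted p = 0.00153). NTH2, the paralog of NTH1 (1.37 ± 0.37), and TPS3, the paralog of TSL1 (0.63 ± 0.21), were higher too. PCL10, a cyclin of the kinase Pho85 that inhibits glycogen synthase (-1.71 ± 0.44), the phosphatase gene GLC7 (-1.60 ± 0.24) and the phosphoglucomutase gene PGM2 (-1.56 ± 0.44) were lower. PGM2 was also the only gene of this list called in WT, lower in YPD (-3.82 ± 0.48). The median of the 16 genes in WT was -0.80, and -0.91 without both WT libraries of replicate 3.

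Of 20 Msn2/4 and protein kinase A pathway genes, 6 were higher and 5 lower in H3i YPD than in WT YPD, with a median of -0.01, where 26.0% and 23.7% of all genes were called. None was called between media in WT. In H3i, 4 were higher and 7 lower in YPD than in YPGal, where 21.4% and 22.2% of all genes were called. With both WT libraries of replicate 3 left out, the medians were -0.02 between strains in YPD, -0.18 between media in H3i and -0.03 between media in WT. RIM15 had 615, 105 and 485 CPM in H3i YPD, 74.3, 3.93 and 76.2 CPM in H3i YPGal, 49.3, 4.71 and 90.8 CPM in WT YPD and 59.4, 1.45 and 101 CPM in WT YPGal. RIM15 was the highest in H3i YPD within every replicate. In replicate 2, though, the other groups held only 1.45 to 4.71 CPM, far below their values in replicates 1 and 3. Over the 8 libraries, H3i YPD exceeded H3i YPGal by 2.49 ± 0.33 (adjusted p = 0.00217). The adenylate cyclase gene CYR1 (1.52 ± 0.20) and IRA2, which encodes a GTPase-activating protein for Ras (1.33 ± 0.26), were higher as well. The Ras GTPase genes RAS1 (-1.78 ± 0.39) and RAS2 (-1.19 ± 0.30) were lower, as was WHI2 (-1.30 ± 0.24), which acts in the stress response with the phosphatase Psr1. MSN2 (0.05 ± 0.23), MSN4 (0.17 ± 0.26) and GIS1 (-0.28 ± 0.34) did not pass the test between media in H3i.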

How the data were processed

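Messenger RNA was sequenced from yeast in 4 groups of 3 biological replicates. Per the labels' protocols, replicates 1 and 2 shared an extraction and a library kit, and replicate 3 had others. The authors deposited raw counts per gene for each library. The submitters' processing notes name FastQC, HISAT2, SAMtools, Picard and DESeq2 and the build sacCer3. The sources used here do not name the counting tool or its strand setting. RefSeq R64 holds the same assembly, and 6047 of 7127 features matched a RefSeq locus tag. Rows naming no gene (5 per library) held 22.0% to 74.5% of the deposited counts and were left out.

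CPM was computed from the deposited counts as gene counts scaled to a library sum of 1000000; levels per kilobase divide it by gene length. Tests used edgeR 4.0.16 in R 4.3.3 (TMM, filterByExpr, quasi-likelihood) on the 8 libraries of replicates 1 and 3 with a term for kit, which in these 8 is also the replicate block, over 6354 genes. A call is a Benjamini-Hochberg adjusted p under 0.05. SE is the log2 fold change over the square root of F. The fit left 3 residual degrees of freedom (common coefficient of variation 0.273), and the spread of each gene was moderated with that of all genes. The block takes out the shift between replicates 1 and 3. The p-values therefore rest on how far the group differences varied between these replicates, not on the shift itself. Replicate numbers paired the libraries: the 18 same-numbered pairs correlated at r = 0.395 to 0.822 in deviations from group means over 6454 genes, and 12 of 12 libraries correlated best with their own number. On simulated data for H3i YPD against H3i YPGal (6247 genes), 12 of 100 genes changed 2-fold, 87 of 100 changed 4-fold and 16 of 6047 unchanged genes were called. The changed genes had 10 CPM or more, and the simulation held no shift between replicates. Far more genes were called in the real comparison (2769 of 6354), so these rates need not hold there.

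The members and the gene lists were chosen with earlier results of these data known. Named were all 32 members, MSN2, MSN4, RIM15 and GIS1, HHT1 and HHT2, and from each outside list up to 3 called genes in each direction with the largest change at a mean of 10 CPM or more, between media in each strain; marker genes of strain and mating type serve as checks. Alternatives were DESeq2 1.42.0, RLE factors or gene totals, no low-count filter, no block, only the groups compared, all 12 libraries with a kit term or a replicate block, no WT replicate 3, and each library left out. The values of 1 member are not reported here; it is counted among the 32. Values in single libraries with few counts carry counting error in addition.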

Additional observations from a re-analysis of the deposited data

Results flagged for a closer look

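The response to YPD differed between H3i and WT, by the test of the difference itself (edgeR, adjusted p under 0.05), for 20 of the 32 genes, and in each the H3i response was the higher. On the log2 scale the difference, H3i minus WT, was 6.39 for GND2, 5.43 for GAD1, 5.13 for HSP26, 4.47 for GSY1 and 4.37 for GPH1. It was 3.30 for TFS1, 3.27 for RTN2, 3.24 for SOL4 and 3.15 for TSL1. It was 2.91 for ALD2, 2.72 for GDB1, 2.68 for GSY2, 2.65 for SDP1, 2.45 for DCS2, 2.40 for GLC3 and 2.14 for PRB1. The smallest were 1.95 for NTH1, 1.88 for YGP1, 1.77 for UGA2 and 1.43 for HOR7. GSY1, GND2, GSY2, ALD2 and GAD1 were called in all 8 fits that left out 1 library. PRB1 was called in 1 of the 8 and SDP1 in 2, while HSP26, SOL4, HOR7 and DCS2 were called in 3. The other 9 were called in 5 or 6. The largest adjusted p over those fits was 0.234, for HSP26, whose difference ran from 2.24 to 7.12.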

How the results depend on the processing

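Counts of members called depended on the libraries, the block and the tool. With all 12 libraries and the kit term, the counts were 0 for WT YPD against WT YPGal, 0 for H3i YPD against H3i YPGal, 0 for H3i YPD against WT YPD and 0 for the difference of the responses, at a common coefficient of variation of 1.13. With all 12 libraries and a replicate block they were 1, 3, 13 and 3, at 0.898. In the 8 libraries with no replicate block they were 0, 4, 21 and 0; the replicate numbers pair the libraries. DESeq2 called 20 members in WT, RLE factors 2 and gene totals 2. Without both WT libraries of replicate 3, 17 were called in WT and 15 between media in H3i; with only the groups compared, 24 and 15 (not run for the difference, which needs all 4 groups). Leaving out 1 library gave 0 to 15 in WT, 3 to 14 between media in H3i, 19 to 31 between strains in YPD and 5 to 25 for the difference. All 8 leave-outs kept 0 of the 4, 2 of the 9, 18 of the 30 and 5 of the 20 calls. H3i YPGal against WT YPGal gave 0 members in each setting. Of single-gene values under these alternatives, 2274 kept their side of the threshold, 278 lost and 136 gained a call, and no called value changed sign. Uncalled values changed sign 91 times in H3i YPGal against WT YPGal, 31 times between media in H3i, 7 times for the difference, 4 times in WT and 1 time between strains in YPD. Each fit that left out 1 library held 1 library in that group, and the fit without both WT libraries of replicate 3 held 1 in each WT group. Counts of calls from these fits take their spread from the other groups. Depth limits WT YPD replicate 1, where DDR2 and SOL4 had 1 count.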
